A study of Mus musculus with 4 samples.

Results

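Intronic CTCF binding in very long genes was described from the peaks that the depositors called in mouse calf muscle. A member is a summit, the highest point of a peak, that lies on an autosome inside a protein-coding gene longer than 200 kb. It also lies outside all exons, more than 1 kb from every gene start and gene end, and more than 500 bp from every transcript start. Of 41000 autosomal summits in the conservative peak list, which holds 42163 peaks in all, 4499 met these conditions, a share of 10.97% (95% Wilson interval 10.7% to 11.3%). They lie in 859 of the 953 autosomal genes longer than 200 kb in GENCODE M21, and 50 of them lie in more than 1 such gene. The conditions use position and annotation only, so peak strength, motif content and repeat content were not part of the choice.

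CTCF was mapped by chromatin immunoprecipitation and sequencing in gastrocnemius, the large calf muscle, of adult female mice 2 months old. The animals were B6CASTF1/J, a hybrid of a laboratory strain and a castaneus strain, and reads were placed on mm10, so the 2 alleles are not told apart. Pool E combined 2 tissue samples and so did pool F; each was sequenced as 2 libraries that are technical replicates, and the labels give 1 donor entry for both. The labels give no treatment and no engineered allele. The data hold no expression values, so the tissue could not be checked against marker genes. The technical replicates were merged in every list, so no value below has a spread between replicates, and intervals cover counting error over summits only.

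CTCF, a zinc-finger protein, recognises a long asymmetric DNA motif, and the direction of that motif matters because loop extrusion by cohesin halts preferentially at CTCF sites whose motifs face the incoming complex. Pairs of sites whose motifs point towards each other, called convergent, therefore mark the bases of many chromosome loops. Very long genes consist almost wholly of intron, and many of them encode synaptic adhesion proteins, ion channels, signalling enzymes and giant structural proteins of muscle.

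The sequences below are the sites of the 9 strongest members, shown because they have the highest strengths inside these genes. Each is written from 5′ to 3′ on the strand that carries the motif, with the core CTCF motif of 14 bases in capitals, in mm10 coordinates read from the GRCm38.p6 RefSeq assembly. Peak strength is the score that the authors deposited, on a scale not given in the sources used here. A motif was a match with at most 2 mismatches to the core CTCF consensus whose centre lay within 50 bp of the summit, on either strand; where none was found, 60 bases of the plus strand around the summit are printed without capitals.
Syt16, chr12:74013929-74013982, minus strand: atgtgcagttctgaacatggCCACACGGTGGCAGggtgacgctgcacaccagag
Atxn7l1, chr12:33334062-33334115, minus strand: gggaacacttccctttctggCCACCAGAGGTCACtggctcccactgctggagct
Cdh13, chr8:118850535-118850588, minus strand: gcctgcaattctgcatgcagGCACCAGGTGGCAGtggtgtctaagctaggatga
Gse1 (also inside Gm20388), chr8:120535155-120535214, plus strand: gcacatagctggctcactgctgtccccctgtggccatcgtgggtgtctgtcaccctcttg
Gm20388 at strength 639.1, chr8:124052243-124052302, plus strand: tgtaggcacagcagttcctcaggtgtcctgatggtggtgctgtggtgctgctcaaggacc
Ctnna3, chr10:64084565-64084618, plus strand: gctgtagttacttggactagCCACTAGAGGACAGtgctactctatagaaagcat
Tjp1, chr7:65519945-65519998, minus strand: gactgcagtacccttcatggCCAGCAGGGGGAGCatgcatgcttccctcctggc
Smg6, chr11:74981596-74981649, plus strand: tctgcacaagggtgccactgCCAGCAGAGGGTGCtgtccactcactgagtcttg
Rasgef1b, chr5:99248639-99248692, plus strand: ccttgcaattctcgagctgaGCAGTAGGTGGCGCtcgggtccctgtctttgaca

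Each of the 7 sites with capitals carries the G-rich core of the motif, with 1 or 2 mismatches to the consensus. The site with the highest strength, 667, lay in intron 1 of Syt16, a synaptotagmin family gene, 16.3 kb from its start, at 372 in pool E and 298 in pool F. Its motif runs antisense to the gene. The site in Cdh13, which encodes the membrane-anchored T-cadherin, had strength 647 in intron 4, at 364 in pool E and 284 in pool F. Strengths of 656 in Atxn7l1, 634 in Tjp1 (the tight junction protein ZO-1), 631 in Smg6 (an endonuclease of nonsense-mediated decay) and 630.04 in Rasgef1b completed the upper range. Ctnna3, which encodes the alpha-T-catenin of heart muscle junctions, held a site of strength 637 in intron 7, at 357 in pool E and 282 in pool F. Both sites without a motif match were also strong, at 641 in Gse1, whose product acts with a histone-modifying corepressor complex, and at 639 in Gm20388. Pool E had the higher score at all 9 sites, by 0.32 to 0.44 on the log2 scale, as it did at 99.9% of all autosomal summits. The scores of each pool are on a scale of their own. At the other end, the weakest member lay in Rcan2 at strength 11.6, and no motif was found there. The pool values matched to it, 82.0 in pool E and 26.1 in pool F, both exceed that strength, unlike those of the 9 sites. Whether they describe the same peak was not tested.

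Gm20388 and Fgfr2 are the longest annotated genes of the set and need a separate account. Gm20388 spans 4435 kb of chromosome 8 through a single transcript tagged as readthrough, contains 71 other protein-coding genes, and holds 159 members. Fgfr2, a fibroblast growth factor receptor gene, is annotated over 2961 kb of chromosome 7 because 1 transcript reaches a distant start. It contains 29 other coding genes and holds 71 members. In all, 206 members (4.58%) lie in no very long gene but these 2, and 95 of those 206 (46.1%) also lie inside a coding gene of 200 kb or less. Gm20388 had the most members with a motif free of mismatches, 19 sites of strength 99.4 to 592, with 10 in the sense and 9 in the antisense direction. The 5 strongest show the unbroken core.
Gm20388 at strength 592.1, chr8:123832930-123832983, minus strand: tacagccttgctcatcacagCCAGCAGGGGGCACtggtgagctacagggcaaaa
Gm20388 at strength 589.6, chr8:122501035-122501088, plus strand: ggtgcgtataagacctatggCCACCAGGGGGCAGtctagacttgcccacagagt
Gm20388 at strength 568.0, chr8:120071839-120071892, minus strand: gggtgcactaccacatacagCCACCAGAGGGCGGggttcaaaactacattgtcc
Gm20388 at strength 566.4, chr8:121694653-121694706, plus strand: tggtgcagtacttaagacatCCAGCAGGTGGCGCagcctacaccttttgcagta
Gm20388 at strength 563.3, chr8:120301027-120301080, plus strand: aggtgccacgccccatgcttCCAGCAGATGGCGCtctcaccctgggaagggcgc

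All 5 lie in unmasked sequence, on either strand of a region that holds many other genes, and pool E again had the higher score at each. The strongest, 3922 kb from the annotated start, had strength 335 in pool E and 255 in pool F. Gm20388 also contains the whole of Gse1, so the fifth site counts in both genes.

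CTCF summits were sparser in the introns of very long genes than in those of shorter ones. There were 11.8 members per Mb of eligible sequence (95% Poisson interval 11.5 to 12.1), where eligible means meeting the same positional conditions, over 381.4 Mb. Introns of protein-coding genes of 200 kb or less held 24.2 summits per Mb (23.8 to 24.7), from 11011 summits in 454.3 Mb. The ratio was 0.487 (0.470 to 0.504). Sequence between genes held 11.4 summits per Mb, and the ratio of very long genes to it was 1.03 (0.998 to 1.07). Without Gm20388 and Fgfr2 the ratios were 0.472 and 1.000, over 4293 members.

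Density was lower in longer genes both above and below the 200 kb limit. In genes of 200 to 300 kb there were 17.4 members per Mb (16.5 to 18.3), in genes of 300 to 500 kb 12.5, in genes of 500 to 1000 kb 8.79, and in the 55 genes over 1000 kb 8.08 (7.44 to 8.75), or 5.43 (4.89 to 6.01) in the 53 of these other than Gm20388 and Fgfr2. Genes of 150 to 200 kb held 17.9 summits per Mb (16.9 to 18.99) and genes of up to 50 kb held 28.1. The intervals of the 2 classes on either side of the limit overlapped. Just over the limit, Pcbp3 (200031 bp) held 1 summit of strength 399, Plcxd3 (200063 bp) held none and Umad1 (200183 bp) held 3, the strongest at 434. Just under it, Atp9b (199920 bp) held 1 of strength 437, Morc1 (199664 bp) held 1 of strength 360.4 and Clec16a (199540 bp) held 7, the strongest at 524.

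**Figure D1:**
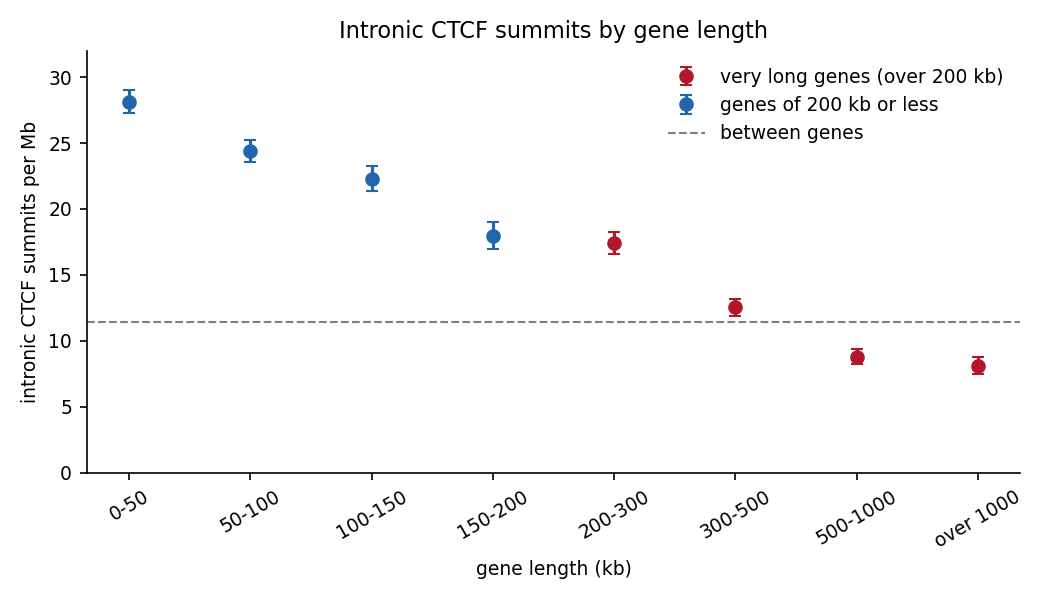
Intronic CTCF summits per Mb of eligible sequence (vertical axis) by gene length class in kb (horizontal axis), for very long genes and for genes of 200 kb or less; bars are 95% Poisson intervals and the dashed line is the density between genes. The points descend across all 8 classes, and the 500 to 1000 kb and over 1000 kb classes, at 8.79 and 8.08 per Mb, lie below the line at 11.4; without Gm20388 and Fgfr2 the last value is 5.43.

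GC content of the sequence changed along with length and density. It was 39.9% in the eligible sequence of genes over 1000 kb and 42.6% in genes of 200 to 300 kb, against 44.3% in genes of up to 50 kb. When the 953 genes were divided into 5 equal groups by GC, summits per Mb were 3.99 in the lowest group (34.5% to 38.6% GC), then 7.75, 11.7, 16.6 and 24.4 in the highest (44.7% to 54.2%), or 22.97 there without Gm20388 and Fgfr2. Genes without a member numbered 57 in the lowest group and 2 in the highest. Spearman's rho across the 953 genes, which are not independent replicates, was 0.64 between GC and summits per 100 kb and -0.30 between length and summits per 100 kb. Within a GC range density was still lower in longer genes, but GC was not matched between length classes within a range. In the lowest range, genes over 500 kb held 3.40 summits per Mb (2.97 to 3.88) and genes of 200 to 500 kb 5.09 (4.37 to 5.89). Genes of 100 to 200 kb held 9.91 there and genes of 50 to 100 kb 12.5. In the highest range the values were 24.2 (22.1 to 26.5), 24.4 (23.0 to 25.9), 31.0 and 36.0. The near equality of genes over 500 kb and genes of 200 to 500 kb there depended on Gm20388 and Fgfr2. Without these genes the first value was 17.99 (15.8 to 20.4), and its interval lay below that of genes of 200 to 500 kb. The part of GC in the density of any 1 gene was not tested.

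**Figure D2:**
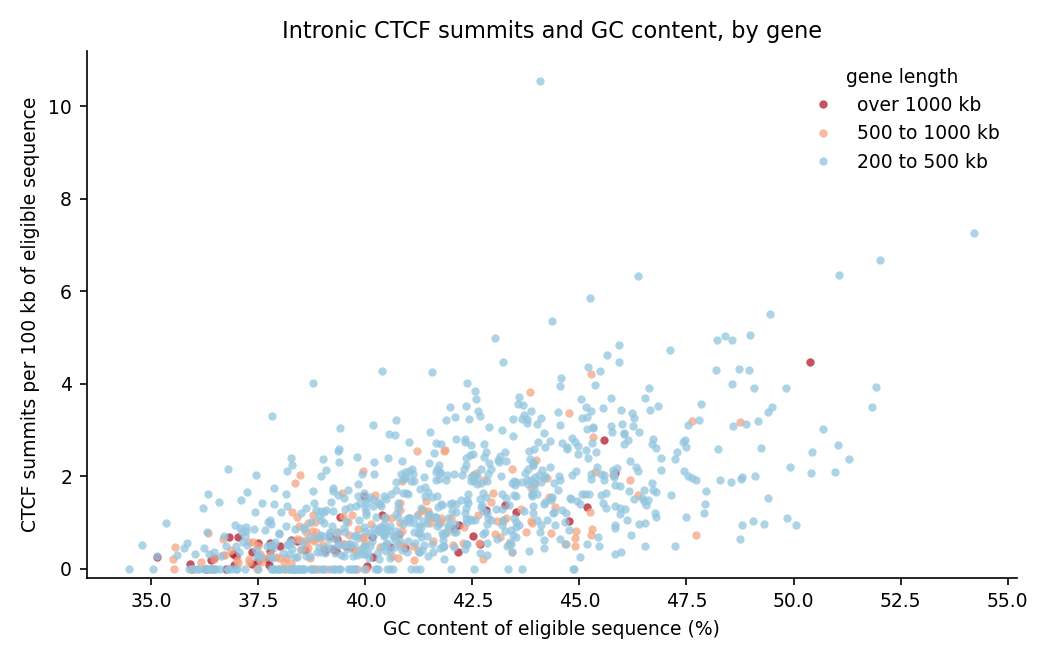
Each point is 1 of the 953 very long genes, with the GC content of its eligible sequence in percent (horizontal axis) and its CTCF summits per 100 kb (vertical axis), coloured by gene length. Most genes over 1000 kb lie at low GC with few summits, with exceptions such as Gm20388 (50.4% GC, 4.46 per 100 kb), Fgfr2 (45.6%, 2.79) and Cdh13 (45.8%, 2.07); the highest point is Fry, with 10.5 summits per 100 kb.

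Compared with introns of shorter genes, very long genes also held fewer CTCF motif sites per Mb, and their sites with 1 mismatch were bound less often. Against sequence between genes, sites with 2 mismatches were not fewer, at 167 per Mb in very long genes and 166 between genes. Motif sites without a mismatch occurred 1.81 times per Mb in very long genes, 3.37 times per Mb in introns of shorter genes and 2.23 times per Mb between genes. Of 692 such sites in very long genes, 557 had a summit within 50 bp, or 80.5% (77.4% to 83.3%), against 83.8% (81.9% to 85.6%) in shorter genes and 77.8% (76.1% to 79.3%) between genes. For sites with 1 mismatch the shares were 22.9% (21.9% to 23.9%) in very long genes, 31.2% (30.4% to 32.1%) in shorter genes and 20.2% (19.7% to 20.7%) between genes. A site that matched the consensus fully was thus occupied in most cases in each setting, with intervals that overlap between the very long and the shorter genes. For sites with 1 mismatch those intervals do not overlap. Within unmasked sequence alone, sites with 1 mismatch were occupied in 26.2% of cases in very long genes (24.97% to 27.5%), against 33.0% in shorter genes and 30.2% (29.4% to 31.0%) between genes. Within masked repeats the shares were 15.8% in very long genes, 27.9% in shorter genes and 9.11% between genes. The order of very long genes and sequence between genes therefore differed between unmasked and masked sequence.

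The number of members per gene ranged from 0 to 159, with a median of 4 (quartiles 2 and 6); 90 genes held 10 or more. Apart from Gm20388 and Fgfr2, the genes with most members were Fry with 35, Camta1 with 28, Rora, Kalrn and Gse1 with 24 each, Pde4d with 23, Ank3 with 22 and Cdh13 with 21. Fry encodes a very large protein of cell shape and chromosome alignment, Camta1 a calmodulin-binding transcription activator, and Rora a nuclear receptor of the circadian clock. Kalrn encodes a guanine nucleotide exchange factor for small GTPases, Pde4d a phosphodiesterase that degrades cyclic AMP, and Ank3 the membrane anchor ankyrin-G. Their densities were unlike: Pde4d, at 1504 kb, held 1.56 members per 100 kb and Gse1, at 353 kb, 7.26. The median strength was 371 in Pde4d, 299.3 in Ank3 and 257 in Camta1, above the 214 of all members. It was 98.5 in Fry, 133 in Rora and 149 in Cdh13, below it.

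Among the 385 genes with 5 or more members, the densest were Fry (10.5 per 100 kb), Gse1, Igsf21 (6.68), Sh3pxd2a (6.35) and Pitpnc1 (6.33). Sh3pxd2a encodes the podosome scaffold Tks5 and Pitpnc1 a phosphatidylinositol transfer protein. The sparsest included Ptprd, a receptor tyrosine phosphatase gene of 2271 kb with 7 members (0.316 per 100 kb), Cntnap2 of the neurexin family (0.377), Macrod2 (0.410) and the synaptic scaffold gene Magi2 (0.416). Eligible sequence of the 5 densest genes had 44.1% to 54.2% GC, and that of these 4 sparse genes 36.9% to 39.0%.

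Fry is the gene with the most crowded introns. Its 35 members lie in 379 kb, a median of 8.35 kb apart, and 21 of them have their summit in masked repeat sequence. Strengths were 42.1 at the lowest, 98.5 at the median and 433 at the highest. By pool they were 30.4, 74.7 and 275 in pool E, and 13.3, 35.3 and 166 in pool F. The repeat-borne members had a median strength of 95.8 and the 14 others 183. The strongest member lay 39.2 kb from the start, at 275 in pool E and 154 in pool F. Motifs pointed in the sense direction at 14 members and in the antisense direction at 14, and 7 had none. Ptprd is the opposite case: its first member lies 567 kb from the start, its strongest (423, at 279 in pool E and 141 in pool F) 653 kb from it, and none lies in a masked repeat.

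**Figure D3:**
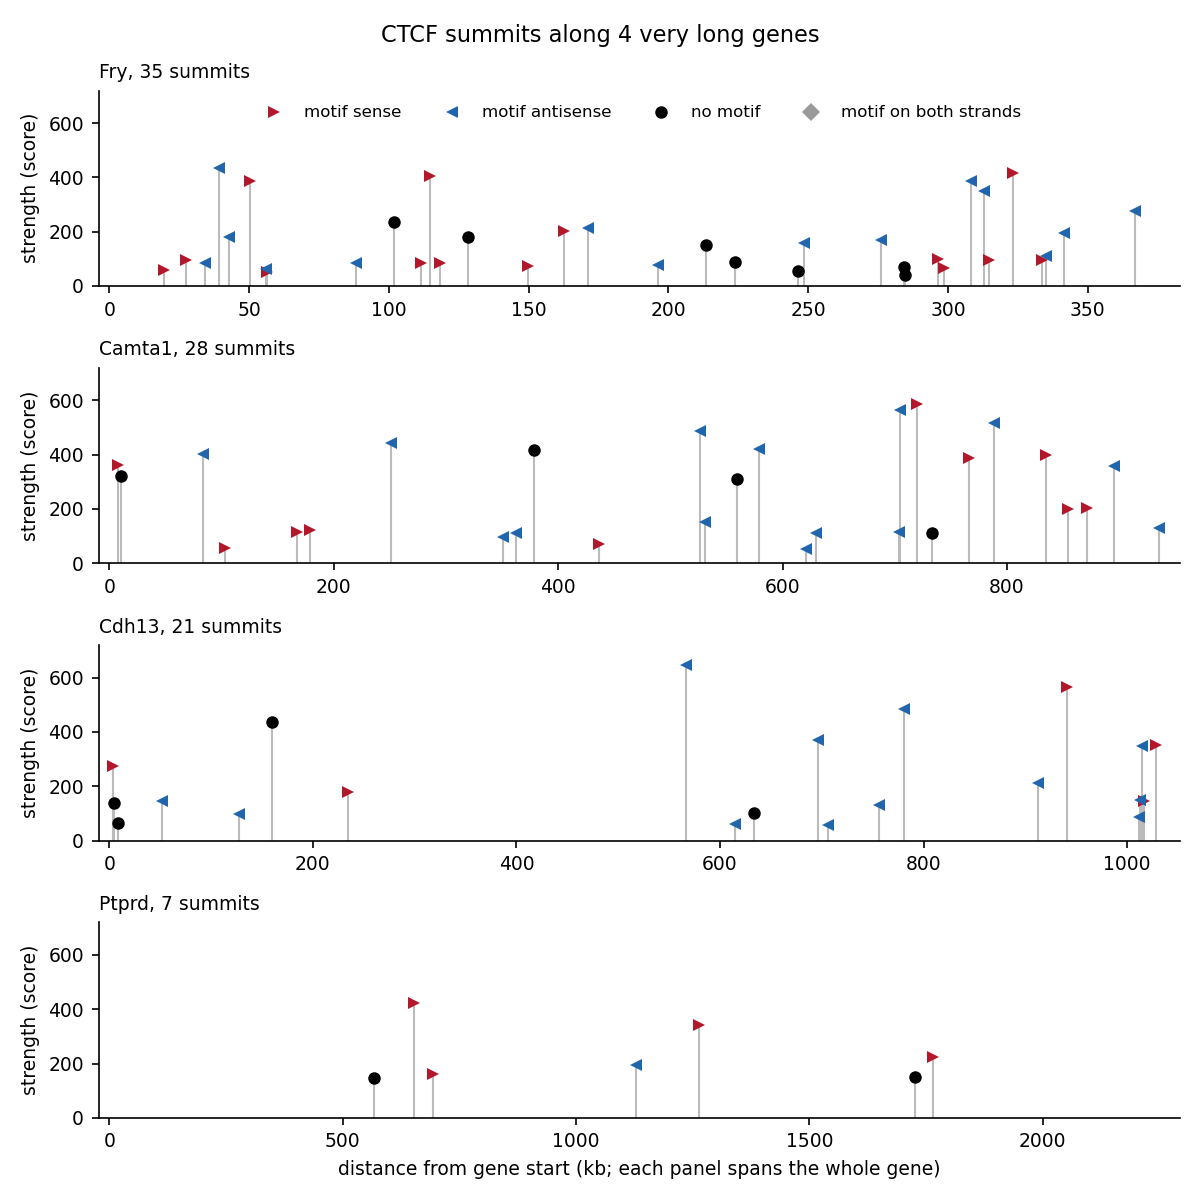
Members along Fry, Camta1, Cdh13 and Ptprd by distance from the gene start in kb (horizontal axis, each panel on its own scale) and peak strength (vertical axis, the authors' score); right-pointing triangles are sense motifs, left-pointing ones antisense, circles have no motif. Fry holds 35 members in 379 kb, most of them weak, whereas Ptprd holds 7 in 2271 kb.

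Of the 953 genes, 94 (9.86%) held no member. The longest of them were Lrp1b (2058 kb), a gene of the LDL receptor family, Naaladl2 (1346 kb), Sgcz (1139 kb), which encodes zeta-sarcoglycan of the muscle membrane complex, Sntg1 (938 kb), a syntrophin gene, and the cadherin gene Cdh18 (925 kb). Their sequence was not free of motifs: Lrp1b has 27 sites with at most 1 mismatch, Naaladl2 10, Sgcz 13, Sntg1 17 and Cdh18 7, and none of these has a summit. GC content was 36.0% to 38.0% in these 5 genes. The longest genes overall were mostly sparse too. Lsamp (2197 kb) held 12 members, Cntnap2 (2245 kb) 8, Macrod2 (1998 kb) 8, the synaptic scaffold gene Dlg2 (1973 kb) 11, Csmd1 (1643 kb) 4 and the neurexin gene Nrxn3 (1612 kb) 11. The 4 members of Csmd1 were weak, the strongest at 163, while Lsamp reached 545 and Dlg2 523.

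The genes were read by 6 lists of function, for which the background is 11.8 members per Mb pooled over all very long genes and a median of 1.10 per 100 kb over genes. Synaptic and cell adhesion genes held fewer: 58 very long genes with 276 members gave 5.96 per Mb, a median of 0.462 per 100 kb, and 9 had none. These genes were also longer, with a median of 739 kb against 327 kb over all very long genes. Cdh13 had the most members and the strongest of this list, and Cdh18 was the longest without one. The 51 ion channel and transmitter receptor genes held 202 members, 8.58 per Mb, with a median of 0.595 per 100 kb, and 6 had none. In that list Itpr2, an inositol trisphosphate receptor gene, had the most members, 15. Kcnip1, which encodes a potassium channel interacting protein, had the strongest (611), and the kainate receptor gene Grik2 (694 kb) was the longest with none.

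Genes of the sarcomere, membrane anchors and muscle function lay above the background. The 34 very long genes of this list held 230 members, 15.8 per Mb, with a median of 1.97 per 100 kb. At least 1 member was present in 32 of the 34 (94.1%), near the 90.1% of all very long genes. Ank3 had the most members of this list (22, the strongest at 538), Ctnna3 the strongest, and Sgcz and Sntg1 none. Ttn, the gene of titin, the giant spring protein of the sarcomere, was named for the tissue and after its values were seen. It held 5 members, each with a motif, at strengths of 246, 435, 506, 69.1 and 387 from the start towards the end. The values in pool E were 166, 283, 296, 55.1 and 247, and those in pool F 77.3, 155, 212, 17.2 and 139. The weakest of them is the one in a masked repeat, and the last of them lies 115 kb from the start of a gene of 279 kb. Neb, the gene of the thin filament protein nebulin, was also named after its values were seen. It held 4 members, with strengths of 145, 57.5, 336 and 313. Their values in pool E were 115, 39.1, 217 and 223, and those in pool F 28.0, 19.4, 116 and 89.9.

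The rest of the muscle list, also read after its values were seen, ran from dense to nearly empty. Prkag2, a subunit gene of the energy sensor AMP-activated kinase, held 11 members (5.05 per 100 kb), 7 of them with a motif, and Dysf, the gene of the membrane repair protein dysferlin, held 9 (5.04), all with a motif. Macf1, Ank2 and Magi1 held 12 each, and Dst and Ablim1 11 each; of these, Macf1 and Dst encode giant linkers between cytoskeleton and membrane. Syne1 and Syne2, which encode the nesprins of the nuclear envelope, held 9 and 7. Utrn, the gene of the dystrophin homologue utrophin, held 5 over 487 kb, Sgcd (delta-sarcoglycan) 5 over 1093 kb and Lama2 (the laminin chain of the muscle basement membrane) 3 over 640 kb. Trdn, the gene of triadin in the calcium release complex, held 2, the stronger at 134, and Camk2d held 1 of strength 119.99 without a motif. Within the muscle list densities ran from 0 to 5.05 members per 100 kb.

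Common fragile site genes had a density near that of the adhesion genes, with 1 gene, Sdk1, on both lists. The 21 very long ones held 145 members, 6.05 per Mb, with a median of 0.533 per 100 kb over a median length of 1125 kb. Rora had the most members, and Lrp1b had none. Wwox held 18 members and Fhit, of 1612 kb, held 1 of strength 82.6; these 2 were named after their values were seen. Transcription and RNA-processing regulators (54 genes, 345 members) held 14.2 per Mb, with Camta1 at the top of the list by members and the homeobox gene Meis2 (203 kb) as the 1 gene without a member. Signalling enzymes and growth factor receptors (47 genes, 353 members) held 13.9 per Mb, and each of the 47 had a member, where 90.1% of all very long genes did. Fgfr2 had the most members of this list, and without it the density was 12.3 per Mb. Rasgef1b had the strongest. Median GC ran in the same direction as density for most lists: 38.8% for adhesion, 40.4% for channels, 41.5% for muscle, 39.7% for fragile sites, 42.7% for transcription and 41.7% for signalling, with 41.4% over all very long genes. Median length also differed, at 739 kb for adhesion, 426 kb for channels, 389 kb for muscle, 383 kb for transcription and 401 kb for signalling. It was 327 kb over all very long genes, and density was lower in longer genes. The parts of GC and of gene length in the difference between lists were not tested.

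Motif content of the members was close to that of other summits. A motif was found at 3602 of 4499 members, 80.1% (78.9% to 81.2%), where the background over all autosomal summits is 77.6%. The share was 81.8% in introns of shorter genes, a difference of -1.75 percentage points (-3.13 to -0.39), and 83.0% between genes, a difference of -2.89 points (-4.24 to -1.58). Windows displaced by 2 kb to either side of the members held a motif in 2.60% of cases. A motif without mismatch was present at 557 members, or 12.4%, close to the background of 12.2%. Members with such a motif had a median strength of 407, those with 1 mismatch 271, those with 2 mismatches 172, and the 897 without a motif 129. Within 100 bp of the summit, 17.2% of members had no CG dinucleotide (background 12.5%), against 16.1% in shorter genes and 13.3% between genes. Median GC of that window was 46.8% for members and 47.3% both in introns of shorter genes and between genes. Eligible sequence as a whole had 41.2% GC in very long genes, against 43.4% in introns of shorter genes and 40.8% between genes.

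The members were weaker than other summits. Their median strength was 214 (95% interval of the median 204 to 221; quartiles 109.7 and 401.3), against 233 (227 to 239) in introns of shorter genes and 280.2 (273 to 286) between genes. Of the 4100 strongest autosomal summits, 317 were members, or 7.73% (6.95% to 8.59%), although members are 10.97% of all autosomal summits. A motif was present at 94.95% of the members among the 4100 strongest summits and at 66.1% of those among the 4100 weakest. Among all candidate peaks ranked at member locations, 38.0% (37.1% to 38.9%) of 11837 met an irreproducible discovery rate of 0.05 or less, where the background is 41.2%. That share was 40.6% in shorter genes and 44.4% between genes.

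**Figure D4:**
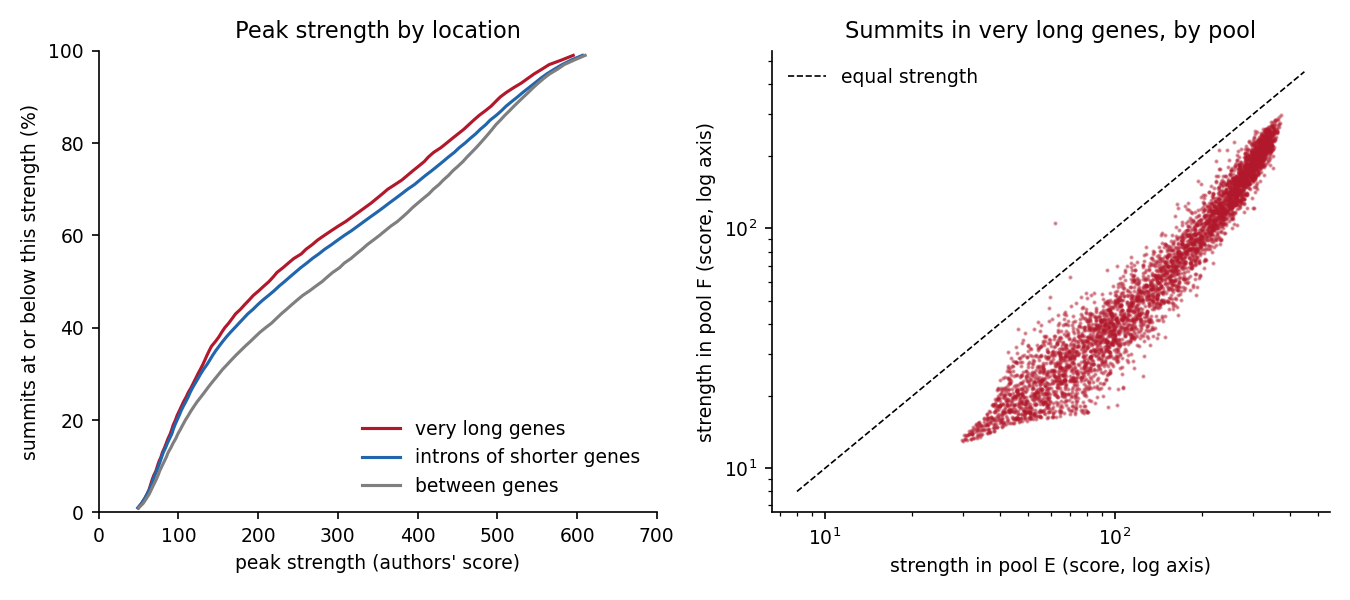
Left, the cumulative share of summits in percent (vertical axis) by peak strength (horizontal axis) for very long genes, introns of shorter genes and sequence between genes; right, strength of each of the 4499 members in pool E (horizontal) and pool F (vertical) on log axes, with a dashed line of equal strength. The curve for very long genes lies to the left, with its median at 214, and all but 1 of the points on the right lie below the line.

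The order of members by strength was similar in the pools, with higher scores in pool E. Spearman's rho between pools across the 4499 members, which are not independent replicates, was 0.97. The members are those of 11837 ranked candidates at these locations that met an irreproducible discovery rate of 0.05 or less. That rate scores how well the ranks of peaks agree between the pools. The filter therefore favours a high rho among members, so rho cannot test how well the pools agree. Strengths had a median of 149 in pool E and 63.5 in pool F, and the log2 ratio of pool E to pool F had a median of 1.08 with an SD of 0.38 across members. The scores of each pool are on a scale of their own, so a higher score in pool E is not a measure of stronger binding. Pool E was higher at 4498 of the 4499, where the background over all autosomal summits is 99.9%. The exception, seen only after the values were examined, was a member in Ccbe1, at 62.0 in pool E and 105 in pool F. A partner peak in the pool E list, at a reciprocal overlap of 50%, was present for 88.2% of members (background 87.7%), and a partner in the pool F list for 63.3% (61.9% to 64.7%; background 66.2%). The pool F share was 65.0% in shorter genes and 69.0% between genes, a difference between members and summits between genes of -5.76 points (-7.37 to -4.15). A partner in pool F was present for 97.2% of members among the 4100 strongest summits and for 3.21% of those among the 4100 weakest, with no steady descent between: of 10 equal groups by strength, the fifth had 70.2% and the sixth 94.9%. Partners in pool E did not follow strength, at 73.5% in the strongest group, 57.6% in the eighth and 90.6% in the weakest. Partner shares depend on the overlap asked for: at 1 bp they were 96.95% in pool E and 76.5% in pool F. A missing partner need not be a missing peak, since each member has a score in both pools. Pool and sequencing depth cannot be told apart, since neither list gives read counts.

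A smaller share of members lay in repeats than in shorter genes. The summit lay in masked repeat sequence for 856 members, 19.03% (17.9% to 20.2%; background 19.8%), against 28.5% (27.7% to 29.4%) in shorter genes and 19.3% between genes. Masked sequence of very long genes held 7.97 summits per Mb (7.44 to 8.52), against 23.5 in shorter genes and 5.61 between genes, and unmasked sequence 13.3, against 24.6 and 15.2. The masked members had a motif in 85.3% of cases and a median strength of 125, against 78.8% and 254 for the 3643 unmasked members. Rodent short interspersed elements of the B2 family are known to carry CTCF motifs; the masking used here does not name families. The 3602 motifs of members had 1506 distinct sequences, and the most frequent were closely related, as the first 3 show.
Most frequent site, 164 members: CCAGAAGAGGGCAT
Next, 99 members: CCAGAAGAGGGCAC
Next, 60 members: CCAGAAGAGGGCGC

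These sites share the stem CCAGAAGAGGGC, which made up 12.2% of member motifs (11.1% to 13.3%), against 20.2% (19.4% to 21.0%) in shorter genes and 12.7% between genes. Of the 438 members with this stem, 89.3% lay in masked repeats. Their median strength was 119, against 281 for members with other motifs.

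Chromosomes differed in the share of their summits that were members. It was highest on chromosome 8, where Gm20388 lies, with 375 members (17.3%), but 240 (11.1%) without the members found only in that gene. Next was chromosome 18, with 196 of 1281 (15.3%). The share was lowest on chromosome 15, with 148 of 1801 (8.22%), and on chromosome 11, with 261 of 3143 (8.30%). Without the members found only in Fgfr2, chromosome 7 would be lower still, at 6.64% in place of 9.19%. Members per Mb of eligible sequence were 15.3 on chromosome 8 (11.24 without Gm20388), 9.13 on chromosome 15, 15.2 on chromosome 11 and 13.7 on chromosome 18. Chromosome 11 had a low share of members but a high density in its very long genes. Their eligible sequence was 14.4% of the chromosome, near the 15.9% over all autosomes.

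Members stood far apart. The nearest other autosomal summit of any kind was a median of 14.8 kb away (quartiles 5.10 and 37.2 kb), against 8.98 kb in shorter genes and 10.4 kb between genes. For 849 members, 18.9% (background 10.6%), it was more than 50 kb away, against 5.71% in shorter genes and 14.02% between genes. The difference from shorter genes was 13.2 points (11.95 to 14.4). Neighbouring members of the same gene were a median of 28.3 kb apart, and 194 of 3693 such intervals (5.25%) exceeded 200 kb, up to 1543 kb.

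Within the genes, members were spread along the whole length with an excess towards the 3′ end. Each gene was divided into 4 equal stretches from start to end, and a member in several genes was counted in each, giving 4552 positions. The stretches held 11.6, 10.5, 10.6 and 14.6 members per Mb from start to end, with an interval of 13.8 to 15.4 in the last. In 20 equal bins the highest value was 17.7 (15.7 to 19.9) in the last and the first had 13.6. Median strength was 239 in the last of the 4 stretches and 198 to 203 in the other 3. Short introns were denser than long ones: introns of up to 10 kb held 20.9 members per Mb, those of 10 to 50 kb 13.4, and those over 200 kb 8.91 (8.31 to 9.55), or 6.84 without Gm20388 and Fgfr2. Intron 1 held 11.1 members per Mb, or 9.62 without those 2 genes, and introns from the fourth onwards 12.7. The longest intron stretches without a member included intron 2 of Lrrtm4 (786 kb) and intron 1 of Sgcz (708 kb), while intron 1 of Rora (542 kb) held 17 members and intron 3 of Pde4d (708 kb) 16.

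The direction of the motif changed along the genes. Over all members with a motif on 1 strand, 48.8% of 3540 (47.2% to 50.5%) had it in the sense direction of the gene. In the first stretch of the genes the share was 58.9% (55.6% to 62.1%, n = 883), then 52.5%, 46.2% and, in the last, 40.0% (37.1% to 42.9%, n = 1091). Motifs near the start pointed into the gene more often than out of it, and so did motifs near the end. Within 20 kb of the start 67.9% (61.0% to 74.1%, n = 193) were sense, and within 20 kb of the end 32.7% (27.1% to 38.8%, n = 245). Beyond 100 kb from the nearer gene end the shares were 51.8% on the side of the start and 47.7% on the side of the end.

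The gradient was present for genes on either strand and without Gm20388 and Fgfr2 (58.6% in the first stretch and 39.5% in the last). It differed by length in the last stretch, at 47.6% (42.6% to 52.7%) in genes over 500 kb and 33.8% (29.2% to 38.7%) in genes of 200 to 300 kb. Motifs without a mismatch showed no steady descent. Their shares were 54.2% (45.7% to 62.5%), 55.7%, 53.1% and, in the last stretch, 39.3% (32.3% to 46.7%). A gradient of the same direction was present in genes of 50 to 200 kb, where the shares were 58.7%, 49.7%, 42.9% and 40.8%. In 1133 spans between genes of more than 200 kb, read along the genome, the share was 52.1% (46.5% to 57.6%) in the first stretch and 49.5% (43.7% to 55.3%) in the last, with no steady descent between them.

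**Figure D5:**
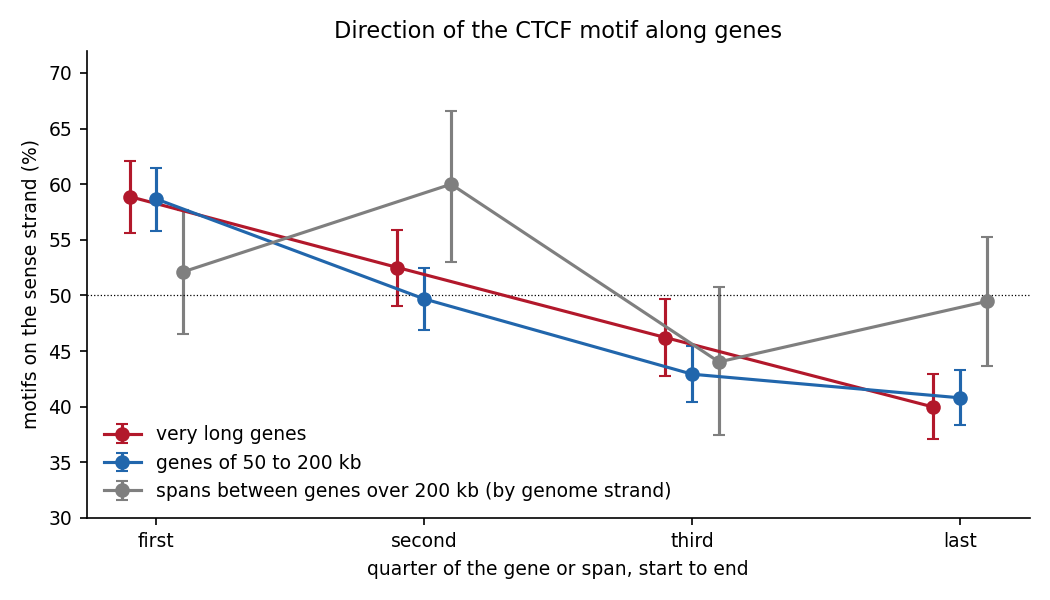
Share of motifs on the sense strand in percent (vertical axis, which starts at 30) in 4 equal stretches from start to end (horizontal axis) for very long genes, genes of 50 to 200 kb and spans over 200 kb between genes; bars are 95% Wilson intervals. Both gene classes descend, at 58.9% and 58.7% in the first stretch and 40.0% and 40.8% in the last.

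Pairs of neighbouring motifs depended on their spacing. Of 2709 neighbouring pairs within a gene, 23.8% were convergent, 22.9% divergent, with motifs pointing away from each other, and 53.3% tandem, on the same strand. At a spacing of 2 to 10 kb 15.9% (12.9% to 19.6%) were convergent and 28.4% divergent. At 100 kb or more 33.6% (29.8% to 37.7%) were convergent and 16.4% (13.5% to 19.7%) divergent. Pairs in shorter genes at 2 to 10 kb were 19.9% convergent and 25.3% divergent, and at 50 to 100 kb 28.0% and 18.3%, against 25.1% and 17.1% in very long genes at that spacing. Taking only the outermost motifs of the 705 genes with at least a pair, 26.7% (23.5% to 30.1%) were convergent, 23.7% (20.7% to 27.0%) divergent and 49.6% tandem.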

How the data were processed

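CTCF ChIP-seq of frozen mouse gastrocnemius was deposited as peak lists on mm10, made by the authors from 4 libraries in 2 pools, with technical replicates merged per the labels; fragments of 200 to 600 bp were kept. Which aligner and peak caller were used is not given in the sources used here. The authors deposited peak strength as a score without a stated scale and the summit as another value, an offset from the peak start. Ranked lists carry the −log10 of the irreproducible discovery rate, as deposited. The deposited lists give no read counts, so depth is unknown.

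The conservative list (42163 peaks) gave the members and the summits set beside them. Scores by pool and the shares of ranked candidates came from the ranked list behind it, and partner peaks from the pool E and pool F lists. In that ranked list the first input matched the pool E list for 76.2% of peaks. The second input matched the pool F list for 60.5%, with no match the other way round. Summits were placed by GENCODE M21; introns are those of the longest coding transcript. Densities divide by eligible sequence outside assembly gaps, and repeats are the lower-case bases of the GRCm38.p6 assembly. The scripts used Python 3.11.15, NumPy 2.4.6, pandas 2.3.3 and SciPy 1.17.1, and classification and motif search were tested on simulated data. Shares have 95% Wilson intervals, densities exact Poisson intervals and differences Newcombe intervals, taking summits as independent; no p-value was computed, since no comparison has replicates.

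The members, the function lists and the settings were chosen with earlier results of these data known. The rule for named genes took the 10 genes with most members, the genes of the 10 strongest members, the 10 longest genes and the 5 longest without a member. It added 3 genes on each side of the 200 kb limit, the 5 densest and 5 sparsest with 5 or more members, and for each function list the genes with the most, the strongest and no member. Some genes that the rule takes are not reported here. Alternatives were other lists, gene length, distance, motif and overlap settings, and, added after seeing the data, leaving out the 2 longest annotated genes.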

Additional observations from a re-analysis of the deposited data

How the results depend on the processing

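With one choice changed at a time, the ratio of density to introns of shorter genes stayed below 1, at 0.436 to 0.510, while the ratio to sequence between genes lay on either side of 1. The combined list gave a density of 14.2 per Mb, a ratio to sequence between genes of 1.08, a motif share of 76.7% and a median strength of 155. The pool E list gave 14.5, 1.09, 76.0% and 102, and the pool F list 9.13, 0.973, 83.6% and 95.7; strengths of different lists are on scales of their own. Keeping only the conservative peaks at or above the median strength gave 2019 members, 244 genes without one, 5.29 per Mb, ratios of 0.454 and 0.851, a motif share of 89.3%, a sense share of 47.1%, a median strength of 417 and partner shares of 95.05% in pool E and 88.5% in pool F. Genes over 300 kb gave 2941 members, 54 genes without one, 10.1 per Mb, ratios of 0.436 and 0.882, and a sense share of 43.1% in the last stretch. More than 5 kb from starts and ends there were 10.7 per Mb, ratios of 0.510 and 1.15, and a motif share of 81.3%. At most 1 mismatch gave a motif share of 47.6%, and a window of 25 bp 76.8%. An overlap of 1 bp gave partner shares of 96.95% in pool E and 76.5% in pool F, and an overlap of 80% gave 74.8% and 10.4%. Without Gm20388 and Fgfr2 the density was 11.4 per Mb. The causes of these shifts were not tested. The sense share in the first stretch lay between 56.9% and 59.4% throughout. No paired analysis was possible because technical replicates are merged in every list and the pools carry no shared replicate numbers in them.

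Limits: the lists hold no read counts, so depth, and any difference in depth between the pools, is unknown. The 2 pools are the only biological units, from 1 hybrid strain, tissue, sex and age. Reads of both parental genomes were placed on 1 reference, and the effect of mappability was not tested. Summits in 1 gene or domain are not independent, so the intervals are too narrow by an unknown amount. A gene's span is that of its longest annotated extent, whether or not the muscle uses that start.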
